A study of Rattus norvegicus with 27 samples.

Results

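The Hippo pathway is a kinase cascade that restrains 2 related transcriptional coactivators, YAP (gene *Yap1*) and TAZ (gene *Wwtr1*). The kinases LATS1 and LATS2, helped by the scaffold protein merlin (gene *Nf2*) and by angiomotin family proteins, phosphorylate YAP and TAZ and keep them out of the nucleus. Unphosphorylated YAP and TAZ bind DNA through TEAD transcription factors, and their targets include genes that feed back on the pathway. In Schwann cells, the myelin-forming glia of peripheral nerve, YAP and TAZ are known to be needed for axon sorting and myelination, and protein kinase A, the kinase that cyclic AMP activates, is known to stimulate LATS kinases. The transcripts of 10 genes of this pathway were followed here: *Yap1*, *Wwtr1*, *Tead1*, *Tead2*, *Tead3*, *Lats1*, *Lats2*, *Nf2*, *Amotl2* and *Ankrd1*. They were taken by gene name from the cell mRNA table, which held all 10 among its 17315 genes.

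The cells were purchased primary rat Schwann cells, used at low passage on coated plates. Undifferentiated cells were kept without dibutyryl cyclic AMP (dbcAMP), a cell-permeable cyclic AMP analogue. Differentiation was induced with 1 mM dbcAMP over 72 h, in a medium low in serum and after overnight starvation, and dedifferentiated cells were given the same 72 h treatment followed by 72 h without dbcAMP in complete medium. That medium held more serum, neuregulin and forskolin, and forskolin itself activates adenylyl cyclase. The labels give no further detail of the medium of the undifferentiated cells, so the effects of stage and of medium cannot be told apart. Each stage had 3 replicates, called biological in the sample titles. The titles do not say whether these came from separate cultures or animals, so p-values measure only the spread between these samples. Vesicle miRNA and lncRNA libraries of the same series were not used here.

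The 9 libraries held 10058732 to 16212282 estimated counts, and 3 counts, taken as the detection floor, amounted to 0.185 to 0.298 CPM. All levels below are CPM, the count as a share of the column total scaled to 1000000. All 10 genes passed the filter on low counts, with *Ankrd1* the lowest at 70 to 234 counts per library. Of 8 Schwann cell markers, 7 were measured, and they summed to 8242 to 9425 CPM in undifferentiated cells, 8445 to 11076 in differentiated cells and 18542 to 21433 in dedifferentiated cells. *Sox10*, the transcription factor that defines the lineage, lay between 964 and 1539 CPM in every library. The 6 fibroblast markers summed to 15766 to 19721, 5425 to 7703 and 9916 to 12871 CPM at the 3 stages in that order. *Col1a1* alone held 5335 to 19655 CPM of this, while *Pdgfra*, *Lum*, *Dcn* and *Thy1* together reached 0.865 to 3.68 CPM, and *Lum* was at 0. *Col3a1* moved against this sum, with means of 53.2, 92.0 and 147 CPM at the 3 stages, and was called higher in differentiated and in dedifferentiated than in undifferentiated cells (log2 change 0.72 and 1.42, edgeR adjusted p = 0.0425 and 0.00343). Endothelial markers (4 of 4 measured, *Cdh5* at 0) summed to 1.21 to 3.08, 5.67 to 8.26 and 3.98 to 7.88 CPM at the same stages. Macrophage markers (5 of 5 measured, *Aif1* and *Adgre1* at 0) summed to 0.322 to 1.64, 3.64 to 5.09 and 1.88 to 3.39 CPM. Mural cell markers (4 of 4 measured, *Rgs5* at 0) summed to 5.30 to 10.5, 3.95 to 4.71 and 7.38 to 13.5 CPM. Neuronal markers (4 of 4 measured) summed to 45.0 to 74.5, 34.9 to 41.8 and 41.7 to 57.8 CPM, nearly all of it the tubulin gene *Tubb3*. The part of these markers in the results below was not tested, and in such bulk samples fewer cells of a type and less RNA per cell cannot be told apart.

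Under dbcAMP the pathway's transcripts moved in both directions. *Yap1*, *Tead2*, *Tead3*, *Lats2*, *Nf2* and *Amotl2* fell, *Wwtr1* and *Tead1* rose, and *Lats1* and *Ankrd1* were not called. A gene was called where edgeR's quasi-likelihood test gave a Benjamini-Hochberg adjusted p under 0.05 over all 10372 genes tested. The 8 calls among 10 genes stand beside 59.6% of all genes called in this comparison, the 6 falls beside 27.9% called lower and the 2 rises beside 31.7% called higher. The median log2 change of the 10 genes was -0.75, and that of all genes tested was 0.05. For 8 of the 10 genes the 2 stages shared no range of values, as for 66.3% of all genes. Within the first sequencing project, which holds replicates 1 and 2 of every stage, 7 of the 10 were called, beside 42.0% of all genes in that fit, and *Wwtr1* was the one lost (log2 change 0.40, edgeR adjusted p = 0.0578). The second project holds 1 library per stage and allows no test of its own, and with the project as a covariate 8 were called, beside 58.4% of all genes.

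After dbcAMP was withdrawn, *Tead3*, *Lats2* and *Amotl2* rose and *Wwtr1* and *Tead1* fell relative to differentiated cells. The other 5 genes were not called. These 5 calls among 10 are near the background of 46.4% of all genes, with 23.2% called higher and 23.2% called lower. The median log2 change was 0.15 for the 10 genes and -0.01 for all genes, and libraries did not overlap for 6 of the 10, beside 58.5% of all genes. Within the first sequencing project 3 were called, beside 25.1% of all genes in that fit, without *Tead1* (log2 change -0.36, edgeR adjusted p = 0.101) and *Lats2* (0.48, edgeR adjusted p = 0.0741). With the project as a covariate 5 were called, beside 44.7% of all genes.

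Compared with undifferentiated cells, dedifferentiated cells had less *Yap1*, *Wwtr1*, *Tead2*, *Lats1*, *Lats2* and *Nf2*, and more *Tead1*. *Tead3*, *Amotl2* and *Ankrd1* were not called. Here 7 of 10 genes were called, beside 29.4% of all genes, with 6 lower beside 13.3% and 1 higher beside 16.1%. The median log2 change was -0.39 for the 10 genes and 0.02 for all genes, and libraries did not overlap for 7 of the 10, beside 43.9% of all genes. Within the first sequencing project 3 were called, namely *Yap1*, *Tead2* and *Lats2*, beside 12.4% of all genes in that fit. There *Wwtr1*, *Tead1*, *Lats1* and *Nf2* kept their direction (log2 shifts of -0.41, 0.52, -0.38 and -0.43; edgeR adjusted p = 0.108, 0.055, 0.216 and 0.0747). Taking the project as a covariate, 7 were called, beside 27.8% of all genes. The 3 comparisons share libraries pairwise and are not independent of each other.

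**Figure D1:**
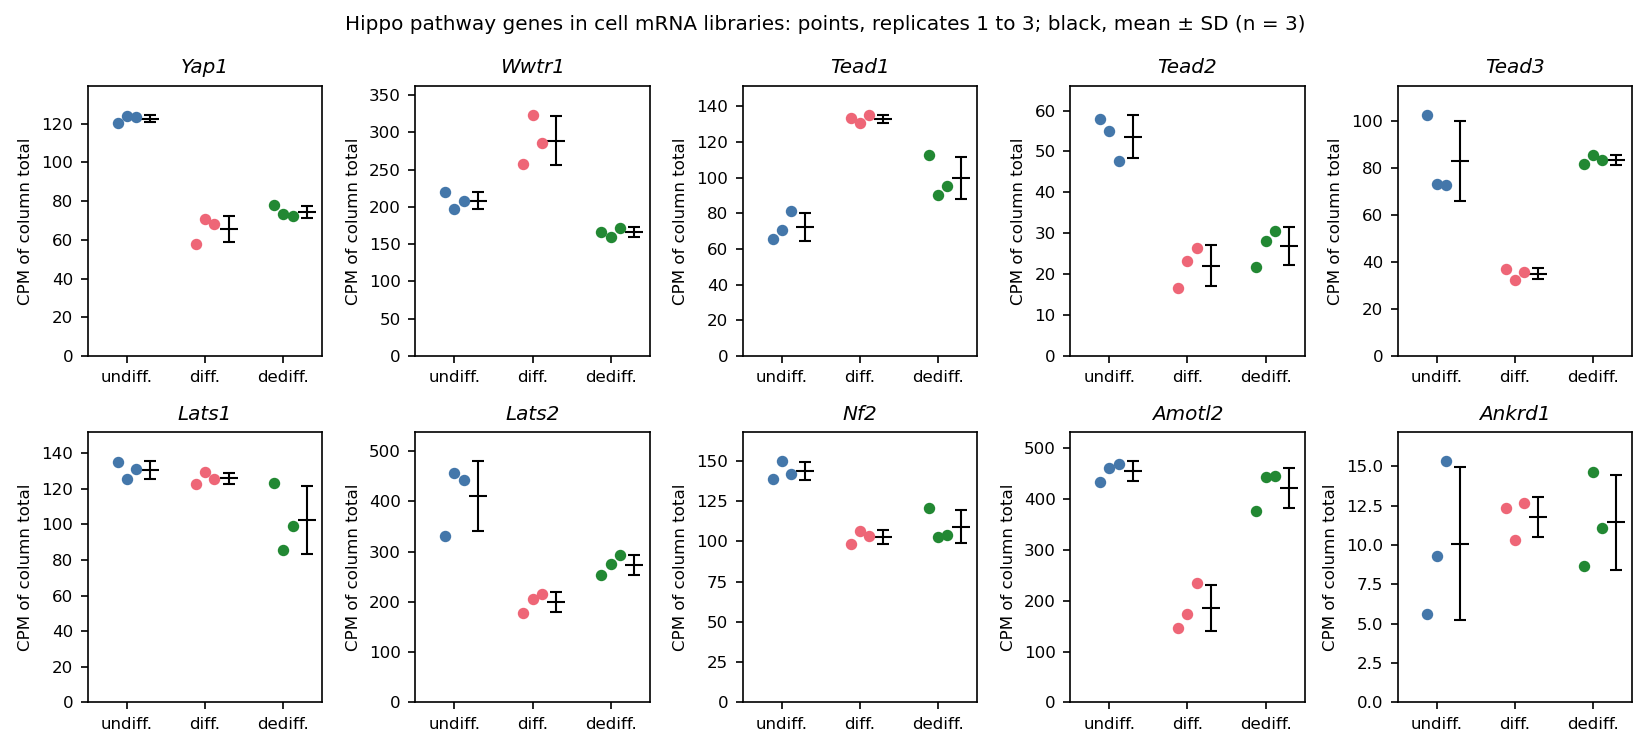
Level of each of the 10 genes, as CPM of the column total on an axis that starts at 0, in the 3 replicates of undifferentiated, differentiated and dedifferentiated cells (coloured points), with the mean ± SD in black (n = 3). *Yap1* lies at 121 to 124 CPM in undifferentiated cells and at 57.8 to 78.2 in the other stages, while *Wwtr1* is highest in differentiated cells.

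**Figure D2:**
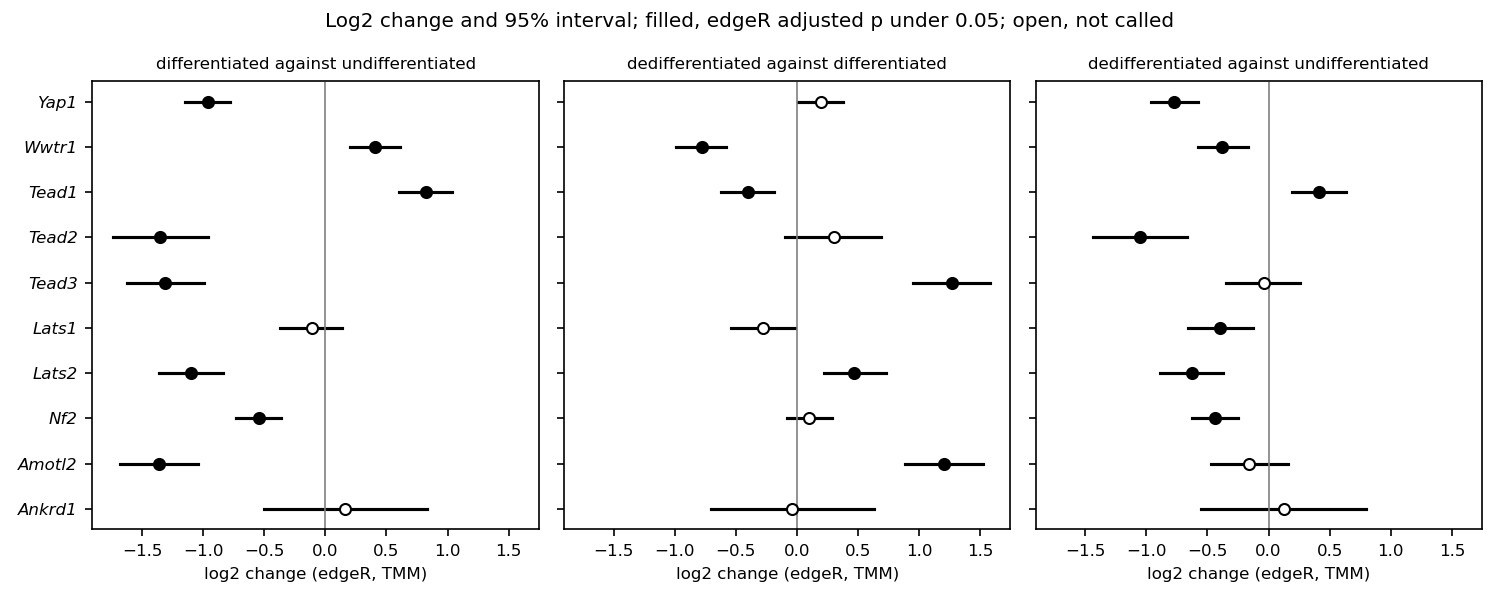
Log2 change of each gene in the 3 comparisons from edgeR, with its 95% interval as a line. Filled points have an adjusted p under 0.05 and open points do not. *Tead1* lies opposite to *Tead2* and *Tead3* in differentiated against undifferentiated cells.

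The coactivators themselves moved apart. *Yap1*, which encodes the coactivator YAP, measured 121, 124 and 123 CPM in undifferentiated cells, 57.8, 70.8 and 68.3 in differentiated cells and 78.2, 73.2 and 72.1 in dedifferentiated cells. Every undifferentiated library was thus above every other library. *Yap1* fell 1.95-fold under dbcAMP (log2 change -0.96, SE 0.085, edgeR adjusted p = 3.78e-06). On withdrawal the 3 dedifferentiated libraries lay just above the differentiated ones, but the difference was not called (log2 change 0.20, 95% interval 0.01 to 0.38, edgeR adjusted p = 0.0819). Dedifferentiated cells stayed 1.70-fold below undifferentiated cells (log2 change -0.77, SE 0.085, edgeR adjusted p = 7.94e-05).

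*Wwtr1*, which encodes TAZ, the paralog of YAP, measured 221, 197 and 208 CPM in undifferentiated cells, 257, 324 and 286 in differentiated cells and 167, 159.9 and 172 in dedifferentiated cells. No 2 stages overlapped, with differentiated cells highest and dedifferentiated cells lowest. *Wwtr1* rose 1.33-fold under dbcAMP (log2 change 0.41, SE 0.091, edgeR adjusted p = 0.0029). It fell 1.72-fold on withdrawal (log2 change -0.78, SE 0.092, edgeR adjusted p = 6.67e-05), to a level 1.3-fold below that of undifferentiated cells (log2 change -0.38, edgeR adjusted p = 0.0111).

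The ratio of *Wwtr1* to *Yap1* within a library does not depend on the scaling between libraries, and its change between stages does not depend on gene length. It lay between 1.59 and 1.83 in undifferentiated cells, 4.19 and 4.57 in differentiated cells and 2.14 and 2.39 in dedifferentiated cells, without overlap between stages. The mean log2 ratio (with 0.5 CPM added to both levels) was 0.76 ± 0.103, 2.13 ± 0.063 and 1.15 ± 0.086 at the 3 stages (SD, n = 3). Stage accounted for 98.5% of the variance of this ratio (exact permutation p = 0.00357, the smallest that 280 assignments of 9 libraries allow, and 0.00952 after adjustment over 4 ratios). The balance of the transcripts of the 2 coactivators thus shifted towards *Wwtr1* by 1.37 on the log2 scale under dbcAMP, and after withdrawal the mean log2 ratio lay 0.39 above that of undifferentiated cells.

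The TEAD genes encode the DNA-binding partners of YAP and TAZ, and the 3 measured paralogs did not move together. *Tead1*, which published work ties to myelin gene enhancers in Schwann cells, measured 65.5, 70.7 and 81.0 CPM in undifferentiated cells, 133, 131 and 135 in differentiated cells and 113, 90.5 and 95.5 in dedifferentiated cells. The stages did not overlap, and dedifferentiated cells lay in between. *Tead1* rose 1.76-fold under dbcAMP (log2 change 0.82, SE 0.099, edgeR adjusted p = 4.19e-05), fell 1.32-fold on withdrawal (log2 change -0.40, edgeR adjusted p = 0.00682) and remained 1.33-fold above undifferentiated cells (log2 change 0.41, edgeR adjusted p = 0.0101).

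*Tead2*, a paralog best known from early embryos and neural precursors, measured 58.0, 55.1 and 47.7 CPM in undifferentiated cells, 16.5, 23.2 and 26.3 in differentiated cells and 21.6, 28.1 and 30.6 in dedifferentiated cells. The 3 undifferentiated libraries were the highest, and the other stages overlapped. *Tead2* fell 2.55-fold under dbcAMP (log2 change -1.35, SE 0.175, edgeR adjusted p = 7.08e-05) and stayed 2.07-fold lower after withdrawal (log2 change -1.05, SE 0.175, edgeR adjusted p = 0.00122). The step from differentiated to dedifferentiated cells was not called (log2 change 0.30, 95% interval -0.10 to 0.69, edgeR adjusted p = 0.195).

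*Tead3*, the third paralog, measured 103, 73.3 and 72.9 CPM in undifferentiated cells, 36.8, 32.3 and 35.9 in differentiated cells and 81.6, 85.7 and 83.2 in dedifferentiated cells. The differentiated libraries were the lowest, and the other stages overlapped. *Tead3* fell 2.48-fold under dbcAMP (log2 change -1.31, SE 0.142, edgeR adjusted p = 1.81e-05) and rose 2.40-fold on withdrawal (log2 change 1.27, SE 0.142, edgeR adjusted p = 4.91e-05). Dedifferentiated and undifferentiated cells differed by -0.04 on the log2 scale, with a 95% interval of -0.35 to 0.26 (edgeR adjusted p = 0.84). The sign of this small difference turned with library size alone as the scaling (0.01) and without undifferentiated replicate 1 (0.16).

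The ratio of *Tead2* to *Tead1* had medians of 0.78, 0.177 and 0.311 at the 3 stages in order, and stage accounted for 90.7% of the variance of its log2 value (exact permutation p = 0.00714, adjusted 0.00952). That of *Tead3* to *Tead1* had medians of 1.04, 0.266 and 0.872, with 94.4% accounted for by stage (exact permutation p = 0.00714, adjusted 0.00952). After withdrawal the *Tead3* ratio lay at 0.723 to 0.947, partly inside the undifferentiated range of 0.90 to 1.57, whereas the *Tead2* ratio of 0.192 to 0.321 was below the undifferentiated range of 0.589 to 0.886. Both ratios are drawn in the plot of the 4 ratios.

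**Figure D3:**
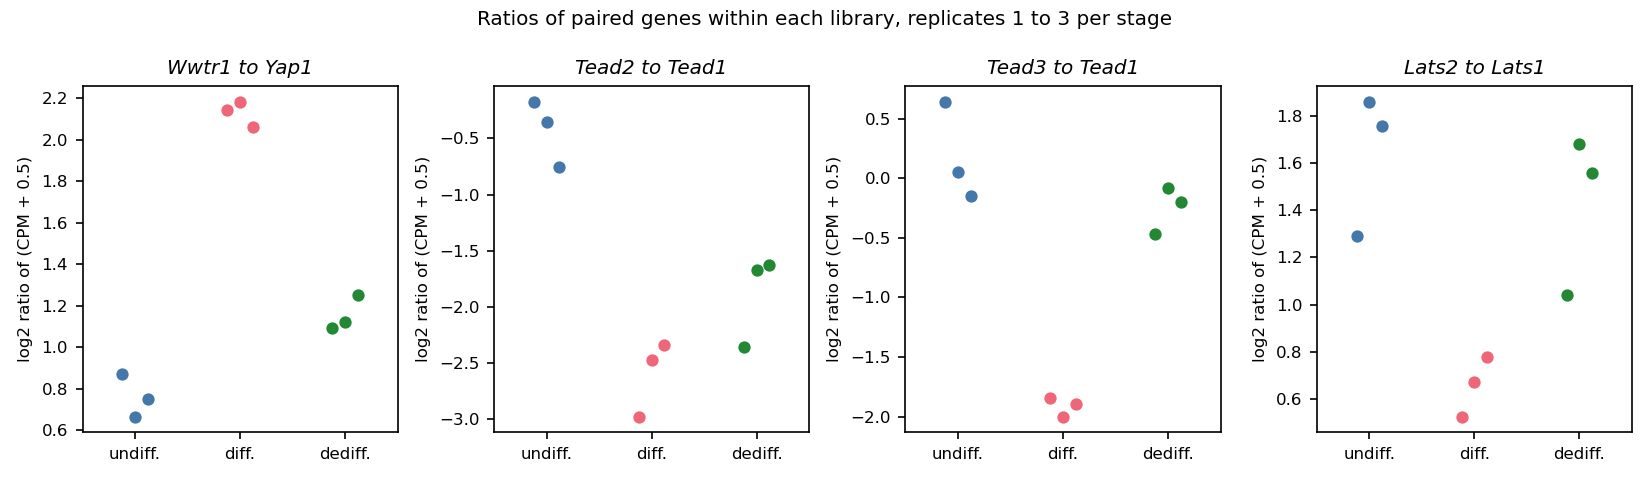
Log2 ratio of CPM (0.5 added to both) between 2 genes of the pathway within each library, for the 3 replicates per stage. *Wwtr1* to *Yap1* separates the stages, with means of 0.76, 2.13 and 1.15, while *Lats2* to *Lats1* overlaps between undifferentiated and dedifferentiated cells.

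Of the kinases that inactivate YAP and TAZ, *Lats2* moved more than *Lats1*. *Lats2*, itself a known YAP and TAZ target, measured 332, 457 and 443 CPM in undifferentiated cells, 177, 206 and 216 in differentiated cells and 254, 275 and 293 in dedifferentiated cells. No 2 stages overlapped. *Lats2* fell 2.14-fold under dbcAMP (log2 change -1.10, SE 0.117, edgeR adjusted p = 1.51e-05) and rose 1.39-fold on withdrawal (log2 change 0.47, edgeR adjusted p = 0.00711). It remained 1.55-fold below undifferentiated cells (log2 change -0.63, SE 0.116, edgeR adjusted p = 0.00228).

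*Lats1*, its paralog, measured 135, 126 and 131 CPM in undifferentiated cells, 123, 129 and 126 in differentiated cells and 123, 85.5 and 99.2 in dedifferentiated cells. The first 2 stages overlapped (log2 change -0.11, 95% interval -0.37 to 0.14, edgeR adjusted p = 0.419). It was called lower in dedifferentiated than in undifferentiated cells (log2 change -0.40, SE 0.118, edgeR adjusted p = 0.0286). This call was lost without undifferentiated replicate 1 or 3 or dedifferentiated replicate 2 or 3 (edgeR adjusted p = 0.0714, 0.0566, 0.0664 and 0.0965). Against differentiated cells it was not called (log2 change -0.28, edgeR adjusted p = 0.0737), but was without dedifferentiated replicate 1, the highest library of its stage (-0.42, edgeR adjusted p = 0.0029).

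The ratio of *Lats2* to *Lats1* ran from 2.45 to 3.64 in undifferentiated cells, 1.44 to 1.72 in differentiated cells and 2.06 to 3.22 in dedifferentiated cells. Stage accounted for 78.1% of the variance of its log2 value (exact permutation p = 0.0179, adjusted 0.0179). The adjusted exact permutation p was 0.05 to 0.0607 without undifferentiated replicate 3, without dedifferentiated replicate 3 or without any 1 of the 3 differentiated libraries.

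*Nf2*, which encodes merlin, a tumour suppressor whose loss gives rise to Schwann cell tumours, measured 139, 149.5 and 142 CPM in undifferentiated cells, 98.1, 106.5 and 103 in differentiated cells and 121, 103 and 104 in dedifferentiated cells. It fell 1.46-fold under dbcAMP (log2 change -0.54, SE 0.084, edgeR adjusted p = 0.000247) and was 1.36-fold below undifferentiated cells after withdrawal (log2 change -0.44, SE 0.085, edgeR adjusted p = 0.0029). Differentiated and dedifferentiated cells overlapped, and the difference between them was not called (log2 change 0.10, 95% interval -0.08 to 0.29, edgeR adjusted p = 0.343).

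*Amotl2* encodes an angiomotin family protein that binds YAP and is also a known YAP and TAZ target. It measured 432, 461 and 469 CPM in undifferentiated cells, 147, 173 and 236 in differentiated cells and 377, 444 and 445 in dedifferentiated cells. All 3 differentiated libraries were below all others, and the other stages overlapped. *Amotl2* fell 2.56-fold under dbcAMP (log2 change -1.36, SE 0.144, edgeR adjusted p = 1.55e-05) and rose 2.30-fold on withdrawal (log2 change 1.20, SE 0.144, edgeR adjusted p = 7.57e-05). Dedifferentiated and undifferentiated cells differed by -0.16 on the log2 scale (95% interval -0.47 to 0.16, edgeR adjusted p = 0.446).

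*Ankrd1*, a nuclear ankyrin repeat protein gene widely used as a YAP and TAZ readout, was expressed at a low level and was not called in any comparison. It measured 5.64, 9.33 and 15.3 CPM in undifferentiated cells, 12.4, 10.3 and 12.6 in differentiated cells and 8.65, 14.6 and 11.1 in dedifferentiated cells. The undifferentiated libraries alone spanned the range of all 9, and all stages overlapped. Log2 changes were 0.16 under dbcAMP (95% interval -0.50 to 0.83, edgeR adjusted p = 0.659), -0.04 on withdrawal (-0.70 to 0.63, edgeR adjusted p = 0.929) and 0.13 against undifferentiated cells (-0.55 to 0.80, edgeR adjusted p = 0.79).

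The sequences before the start sites of the members were examined next, since TEAD proteins recognise a short core motif. RefSeq promoter windows of assembly GRCr8, 250 bases before to 50 after a gene's start, were matched by symbol for 6 of the 10 genes: *Yap1*, *Wwtr1*, *Tead3*, *Lats1*, *Nf2* and *Amotl2*. The TEAD core GGAATG, on either strand, was present in 2 of these 6, *Yap1* and *Amotl2*, and in 13.9% of 27457 windows of all genes. Of 14 matched genes of a published YAP and TAZ target list described below, 5 held it. The cyclic AMP response element TGACGTCA was in 0 of the 6 windows and 1.91% of all windows. Its shorter form TGACG, on either strand and contained in the full element, was in 1 of the 6 (*Tead3*) and 22.0% of all windows. A match describes letters and is not a measured binding site. The 250 bases before the start are shown 5′ to 3′ for the 2 members that held the core and for *Ccn1* and *Ccn2*, the target genes most often used as readouts, with each TEAD core in capitals.
Yap1, chr8:13451438-13451687, minus strand: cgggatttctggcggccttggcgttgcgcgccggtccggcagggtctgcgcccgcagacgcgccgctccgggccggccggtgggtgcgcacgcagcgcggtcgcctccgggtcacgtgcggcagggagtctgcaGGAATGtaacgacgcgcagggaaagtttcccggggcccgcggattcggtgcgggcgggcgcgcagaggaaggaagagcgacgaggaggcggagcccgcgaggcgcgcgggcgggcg
Amotl2, chr8:112182376-112182625, plus strand: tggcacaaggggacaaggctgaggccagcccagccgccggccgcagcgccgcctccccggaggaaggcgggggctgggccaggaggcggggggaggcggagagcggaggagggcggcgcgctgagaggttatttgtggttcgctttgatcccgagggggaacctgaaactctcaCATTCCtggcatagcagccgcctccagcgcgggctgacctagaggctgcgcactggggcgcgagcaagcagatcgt
Ccn1, chr2:237225690-237225939, minus strand: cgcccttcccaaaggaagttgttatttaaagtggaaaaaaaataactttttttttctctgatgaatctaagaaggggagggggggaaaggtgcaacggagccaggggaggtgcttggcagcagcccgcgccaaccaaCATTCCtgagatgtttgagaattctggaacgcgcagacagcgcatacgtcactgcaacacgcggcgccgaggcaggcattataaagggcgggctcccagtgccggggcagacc
Ccn2, chr1:22624615-22624864, minus strand: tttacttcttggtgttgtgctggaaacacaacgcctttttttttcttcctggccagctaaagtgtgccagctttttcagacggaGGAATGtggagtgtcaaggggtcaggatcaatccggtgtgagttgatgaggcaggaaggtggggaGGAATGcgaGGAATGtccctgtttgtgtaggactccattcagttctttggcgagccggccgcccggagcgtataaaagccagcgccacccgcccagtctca
The core began at base -116 relative to the start site in *Yap1*, -76 in *Amotl2* and -113 in *Ccn1*. *Ccn2* held it at 3 places, beginning at bases -166, -101 and -92. *Yap1* and *Amotl2* both fell under dbcAMP, *Amotl2* alone of the pair was called higher on withdrawal, and the values of *Ccn1* and *Ccn2* are given with the target genes. Among the members whose windows lacked the core, *Tead3* and *Nf2* also fell under dbcAMP, *Wwtr1* rose and *Lats1* was not called. A link between the core and these changes was not tested.

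The other genes of the pathway were examined as a list of 41, of which 32 were measured and 30 tested. *Tead4*, *Vgll3*, *Amot* and *Amotl1*, which the list also named, were not found by symbol among the measured genes and so were not analysed here. Under dbcAMP 3 of the 30 rose and 13 fell, beside 31.7% and 27.9% of all genes, and the median log2 change was -0.17. On withdrawal 11 rose and 3 fell, beside 23.2% and 23.2%, with a median of 0.20. Against undifferentiated cells 1 was higher and 7 were lower, beside 16.1% and 13.3%, with a median of -0.11. Within the first sequencing project 13, 8 and 4 were called in the 3 comparisons in order, beside 42.0%, 25.1% and 12.4% of all genes.

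The core kinase module was uneven. *Sav1*, the scaffold that joins the upstream kinases to LATS, measured 74.6, 75.3 and 84.5 CPM in undifferentiated cells, 33.8, 34.5 and 39.6 in differentiated cells and 59.3, 85.9 and 83.1 in dedifferentiated cells. It fell under dbcAMP (log2 change -1.18, SE 0.13, edgeR adjusted p = 2.02e-05) and rose on withdrawal (1.09, edgeR adjusted p = 7.39e-05). *Stk3*, the MST2 kinase, fell under dbcAMP (log2 change -0.52, edgeR adjusted p = 0.0127), whereas *Stk4*, the MST1 kinase, was not called (0.20, edgeR adjusted p = 0.10). The LATS cofactors *Mob1a* and *Mob1b* had log2 shifts of 0.06 and -0.02 under dbcAMP (edgeR adjusted p = 0.609 and 0.929). *Vgll4*, which encodes a TEAD corepressor, was called higher on withdrawal (log2 change 0.40, edgeR adjusted p = 0.0355) although libraries overlapped, a call lost without differentiated replicate 1 or 3 or dedifferentiated replicate 2 or 3 (edgeR adjusted p = 0.114, 0.105, 0.121 and 0.11).

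Upstream, the protocadherin gene *Fat4* and the FERM domain gene *Frmd6* had the smallest p among the falls. *Fat4* measured 55.1, 50.9 and 54.6 CPM in undifferentiated cells, 4.2, 4.78 and 4.44 in differentiated cells and 15.3, 10.1 and 10.5 in dedifferentiated cells. Its log2 changes were -3.64 under dbcAMP (SE 0.17, edgeR adjusted p = 4.01e-08), 1.44 on withdrawal (edgeR adjusted p = 7.86e-05) and -2.20 against undifferentiated cells (edgeR adjusted p = 4.53e-06), so that the rise on withdrawal left it well below the start. *Frmd6* measured 464, 598 and 653 CPM in undifferentiated cells, 110.2, 116 and 132 in differentiated cells and 361, 425 and 465 in dedifferentiated cells, with log2 shifts of -2.32, 1.82 and -0.50 in the 3 comparisons (edgeR adjusted p = 1.45e-07, 2.02e-06 and 0.0121), the last with overlapping libraries.

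Falls under dbcAMP also included kinases that act beside MST and LATS. *Map4k4* fell by 0.90 and *Map4k3* by 0.91 in log2 units (edgeR adjusted p = 1.45e-05 and 0.000449), and *Stk38l*, a LATS-related kinase, fell by 1.22 (edgeR adjusted p = 3.35e-06). On withdrawal *Map4k3* rose by 1.09 (edgeR adjusted p = 0.000238), while *Map4k4* was not called (0.06, edgeR adjusted p = 0.612). Against undifferentiated cells *Map4k4* and *Stk38l* were lower, by log2 shifts of -0.84 and -0.62 (edgeR adjusted p = 9.45e-05 and 0.00125). *Wwc2*, a relative of KIBRA, and *Limd1*, which encodes a LIM protein that binds LATS, went the other way. *Wwc2* rose by 0.46 under dbcAMP and fell by 0.35 on withdrawal (edgeR adjusted p = 0.000204 and 0.00224), and *Limd1* rose by 0.46 and fell by 0.83 (edgeR adjusted p = 0.000304 and 1.01e-05), to below undifferentiated cells (log2 change -0.37, edgeR adjusted p = 0.00407). The kinase gene *Taok3* was called higher under dbcAMP (0.34, edgeR adjusted p = 0.0206), a call lost without undifferentiated replicate 1 or differentiated replicate 2 or 3 (edgeR adjusted p = 0.0667, 0.0575 and 0.0766). *Dchs1*, the ligand of FAT4, was near the detection floor, with 11 to 27 counts in differentiated and 1 to 4 in dedifferentiated libraries (called lower, edgeR adjusted p = 0.00477).

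The transcripts that YAP and TAZ are known to induce were examined as a list of 21 published target genes that does not hold the members. Of these 16 were measured and tested, and *Ajuba*, *Ptpn14* and *Fjx1* among them are also counted in the list of other pathway genes. Under dbcAMP 11 fell and 1 rose, beside 27.9% called lower and 31.7% called higher among all genes, and the median log2 change was -1.29 beside 0.05. These falls include 2 genes near the detection floor. *Nt5e* had 2 to 3 counts in differentiated and 3 to 113 in undifferentiated libraries, and passed the low-count filter only through the other stages. *F3* had 5 to 13 counts in differentiated and 30 to 68 in undifferentiated libraries. On withdrawal 8 rose and 1 fell, beside 23.2% each, with a median of 0.59 beside -0.01. Against undifferentiated cells 5 were lower and 1 was higher, beside 13.3% and 16.1%, with a median of -0.29. *Nt5e* was among the lower ones, with overlapping libraries (edgeR adjusted p = 0.0474). Within the first sequencing project 8, 8 and 2 were called in the 3 comparisons in order, beside 42.0%, 25.1% and 12.4% of all genes.

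The falls of smallest p were in *Myof*, *Gadd45a*, *Axl* and *Tgfb2*. *Myof*, which encodes the membrane repair protein myoferlin, measured 1387, 1603 and 1567 CPM in undifferentiated cells, 210.3, 172 and 219 in differentiated cells and 1159, 1056 and 1088 in dedifferentiated cells. Its log2 changes were -2.98, 2.47 and -0.51 in the 3 comparisons (edgeR adjusted p = 1.01e-08, 9.85e-08 and 0.00441). *Gadd45a*, a stress-response gene, measured 419, 371 and 365 CPM in undifferentiated cells, 55.8, 52.1 and 38.5 in differentiated cells and 410.5, 559.7 and 501 in dedifferentiated cells, with log2 shifts of -3.04 and 3.34 in the first 2 comparisons (edgeR adjusted p = 1.13e-07 and 2.2e-07).

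*Axl*, a receptor tyrosine kinase gene, fell from 460.2 ± 87.4 to 88.9 ± 20.5 CPM and rose to 378 ± 47.9 (SD, n = 3), with log2 shifts of -2.43 and 2.10 (edgeR adjusted p = 8.51e-07 and 6.11e-06). *Igfbp3*, an IGF-binding protein gene, fell by 2.6 and rose by 2.62 in log2 units (edgeR adjusted p = 9.12e-05 and 0.000155), and its dedifferentiated libraries ranged from 24.2 to 70.7 CPM. *Tgfb2*, a growth factor gene, fell from 13.8 ± 0.916 to 3.19 ± 0.752 CPM (SD, n = 3; log2 change -2.17, edgeR adjusted p = 8e-06) and stayed below undifferentiated cells after withdrawal (log2 change -1.68, edgeR adjusted p = 0.000178). *Ajuba*, a LIM protein gene that is on both lists, was not called under dbcAMP (log2 change -0.05, edgeR adjusted p = 0.716) and rose on withdrawal (0.57, edgeR adjusted p = 0.00103). *Fstl1*, a secreted glycoprotein gene, was the 1 target called higher under dbcAMP (0.27, edgeR adjusted p = 0.012) and fell on withdrawal (-0.66, edgeR adjusted p = 7.76e-05). The first call was lost without undifferentiated replicate 2 or differentiated replicate 3 (edgeR adjusted p = 0.0717 and 0.0542).

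The readout genes *Ccn1* and *Ccn2* encode secreted matricellular proteins and were listed under their older names *Cyr61* and *Ctgf*. Both varied widely between the undifferentiated replicates, as *Ankrd1* did. *Ccn1* and *Ccn2* also varied between differentiated replicates, but little between dedifferentiated ones. *Ccn1* measured 318, 724 and 304 CPM in undifferentiated cells, 117, 341 and 191 in differentiated cells and 149, 140.0 and 152 in dedifferentiated cells. It was called lower under dbcAMP (log2 change -1.12, SE 0.382, edgeR adjusted p = 0.0265), although libraries overlapped. The call was lost without undifferentiated replicate 2, which holds the highest value (log2 change -0.63, edgeR adjusted p = 0.125), and without differentiated replicate 1 or 3 (edgeR adjusted p = 0.0802 and 0.0817). On withdrawal *Ccn1* was not called (-0.54, edgeR adjusted p = 0.269), and it was lower than in undifferentiated cells (-1.66, edgeR adjusted p = 0.009). *Ccn2* measured 331, 1371 and 986 CPM in undifferentiated cells, 479, 721 and 957 in differentiated cells and 438, 445 and 446 in dedifferentiated cells, and none of its 3 comparisons was called (edgeR adjusted p = 0.431, 0.179 and 0.0684). *Ankrd1*, *Ccn1* and *Ccn2* were thus not called higher on withdrawal, whereas *Amotl2*, *Lats2*, *Myof*, *Gadd45a* and *Axl* were. *Myof*, *Gadd45a* and *Axl* are named here because their changes had the smallest p. Of the 16 target genes 8 were called higher on withdrawal, 1 was called lower and 7 were not called. Those not called also include *Tgfb2*, *Crim1*, *Ptpn14*, *Fjx1* and *Nt5e*. The difference between these groups of genes was not tested.

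**Figure D4:**
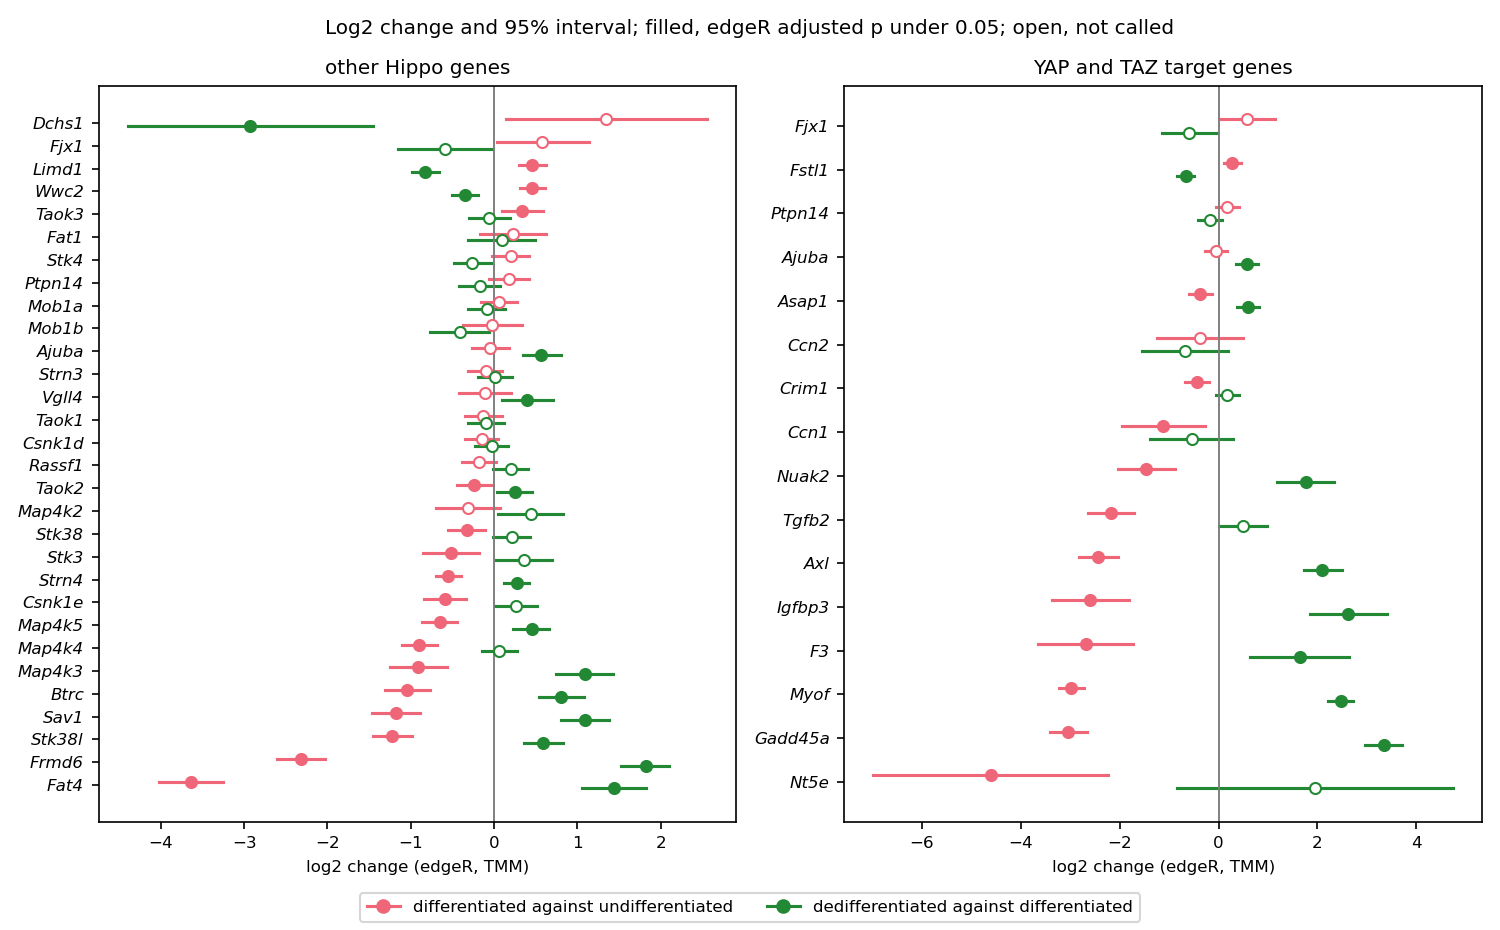
Log2 change with its 95% interval from edgeR for the 30 tested other Hippo genes (left) and the 16 tested target genes (right), in differentiated against undifferentiated cells (red) and dedifferentiated against differentiated cells (green). Filled points have an adjusted p under 0.05. Among target genes 11 lie lower with a call in red and 8 higher with a call in green.

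Genes that published work links to YAP, TAZ or TEAD1 in Schwann cells formed a list of 6, all tested. Under dbcAMP 5 rose and 1 fell, beside 31.7% and 27.9% of all genes, with a median log2 change of 0.92. On withdrawal 1 rose, 2 fell and 3 were not called, beside 23.2% higher and 23.2% lower, with a median of 0.03. Against undifferentiated cells 5 were called higher, beside 16.1%, with a median of 0.78, and *Itgb1* was not called (log2 change -0.21, edgeR adjusted p = 0.0919). The laminin receptor genes *Itga6*, *Itgb4* and *Dag1* rose under dbcAMP by 0.49, 0.89 and 0.95 in log2 units (edgeR adjusted p = 0.00351, 0.00253 and 0.00012), while *Itgb1*, the common beta integrin chain, fell by 0.43 (edgeR adjusted p = 0.00155). *Dag1* measured 1780.1, 1483 and 1540.5 CPM in undifferentiated cells, 3662, 2866 and 3192 in differentiated cells and 2689, 2273 and 2261 in dedifferentiated cells, without overlap. Its fall on withdrawal (log2 change -0.42, edgeR adjusted p = 0.0253) was not called without differentiated replicate 1 or dedifferentiated replicate 2 or 3 (edgeR adjusted p = 0.0911, 0.0857 and 0.0929). *Itga6* and *Itgb4* were not called on withdrawal (log2 shifts of -0.07 and 0.13, edgeR adjusted p = 0.608 and 0.605). Both stayed above undifferentiated cells, by 0.41 and 1.02 (edgeR adjusted p = 0.0195 and 0.00297). For *Itga6* this was lost without undifferentiated replicate 2 or 3 or dedifferentiated replicate 1 (edgeR adjusted p = 0.0774, 0.0629 and 0.0629), and for *Dag1*, higher by 0.54 (edgeR adjusted p = 0.0116), without undifferentiated replicate 2 (edgeR adjusted p = 0.06). *Egr2*, the myelin transcription factor, and *Pmp22*, a myelin protein gene, rose under dbcAMP by 6.90 and 1.83 (edgeR adjusted p = 4.09e-06 and 0.000152). Undifferentiated replicate 2 had 14.0 CPM of *Egr2* against 1.37 and 2.62 in the other replicates, and without it the log2 change under dbcAMP was 8.33. On withdrawal *Egr2* fell and *Pmp22* rose, with log2 shifts of -2.43 and 1.06 (edgeR adjusted p = 0.00185 and 0.00704). Dedifferentiated cells had more of *Egr2* and *Pmp22* than undifferentiated cells, by 4.46 and 2.89 in log2 units (edgeR adjusted p = 0.00023 and 2.92e-05).

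The genes whose profile over the 9 libraries was most like that of *Yap1* were *Ctnnd1*, *Erc1* and *Trak2*, with Pearson correlations of log2 CPM of 0.992, 0.989 and 0.988. *Ctnnd1*, which encodes the cadherin-binding protein p120-catenin, had means of 1470.1 CPM in undifferentiated cells, 483 in differentiated cells and 592 in dedifferentiated cells. For *Wwtr1* they were *Psme3*, *G3bp1* and *Cdkn1c* (0.978, 0.978 and 0.977). *Cdkn1c*, a cell cycle inhibitor gene, had means of 23.8, 47.2 and 14.4 CPM at the 3 stages in order. For *Ankrd1* they included *Shank2* and *Ing3* (0.918 and 0.876), of which *Shank2* had means under 1 CPM at every stage. These correlations describe 9 libraries in 3 stages, which share the stage differences that many genes show.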

How the data were processed

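The cell mRNA table holds estimated counts per gene that the authors made with Salmon, per the submitters' processing notes and the name of the deposited table. These notes also list STAR, HISAT2, Trim Galore and DESeq2 1.26.0 with no role or order, and the genome build and annotation are not given in the sources used here. A fractional part was present in 1.15% of values, and values were rounded before testing. Columns were matched to samples by library code and stage, since their replicate suffix differs from the sample titles. Older gene symbols were matched through RefSeq (GRCr8), and the only coordinates given are those of RefSeq promoter windows in GRCr8, because the table's build is not named.

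Levels are CPM of the column total, and estimated counts limit precision at low levels. Tests used edgeR 4.0.16 in R 4.3.3 on all 9 libraries with no covariate, after filterByExpr (minimum count 10), with library sizes over all rows and TMM scaling. Intervals of log2 changes are 95% intervals, with the standard error taken as the change divided by the square root of F. Ratios were tested by exact permutation over samples, with 0.5 CPM added. The code was tested on simulated counts. Within-stage pairs of libraries differed by more than sampling noise (chi-square per degree of freedom from 5.38 to 27.7). Pairs that held replicate 1 gave 21.85 to 27.65. Replicates 2 and 3, which are in different sequencing projects, gave 6.84, 14.65 and 5.38 in undifferentiated, differentiated and dedifferentiated cells.

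The members, the lists of other pathway genes, target genes, Schwann cell genes and cell type markers, and the tests were chosen with earlier results of these data known. Named genes were the members, core kinases, cofactors and readout genes set in advance, the Schwann cell genes, up to 4 called genes per list, direction and comparison with the smallest p, and the 3 genes most like *Yap1*, *Wwtr1* and *Ankrd1* by correlation of log2 CPM (prior count 2), of which 1 is not reported here. Alternatives were other scalings, filters and tests, the replicate block, the sequencing project, and leaving out each library.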

Additional observations from a re-analysis of the deposited data

How the results depend on the processing

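The 30 log2 shifts of the members were read in 9 fits that each left out 1 library and in 9 fits under other alternatives. Direction and side of the threshold were kept in 258 of the 270 values with 1 library left out. Under the other alternatives they were kept in 260 of 270 values. Reversals concerned *Ankrd1* and *Tead3* where they were not called. Without undifferentiated replicate 1 the log2 change of *Ankrd1* was -0.11 under dbcAMP and -0.15 against undifferentiated cells, where *Tead3* had 0.16. These fits ranged from -0.11 to 0.59 under dbcAMP, -0.24 to 0.14 on withdrawal and -0.15 to 0.55 against undifferentiated cells for *Ankrd1*. On withdrawal *Ankrd1* had 0.01 without differentiated replicate 1 or 3, 0.14 without dedifferentiated replicate 1 and 0.04 within the first sequencing project. Against undifferentiated cells it had -0.11 without dedifferentiated replicate 2, and *Tead3* had 0.01 with library size alone.

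Counts of calls moved by over 1.5 times within the first sequencing project alone, which has 2 libraries per stage and where fewer of all genes were called (12.4% against 29.4% between dedifferentiated and undifferentiated cells): 3 members and 8 other Hippo genes were called on withdrawal, against 5 and 14 with all libraries. Against undifferentiated cells 3 members, 4 other Hippo genes and 2 target genes were called there, against 7, 8 and 6. The other counts stayed within 1.5 times under every alternative run. The share of variance of the *Lats2* to *Lats1* ratio ranged from 71.4% to 88.9% when 1 library was left out, and 5 of these 9 fits lost its call. The 56 changes called for named genes of the lists were read in the same 9 fits of each kind as the members. Their alternatives were added after the data were seen. Direction was kept in all 504 values with 1 library left out and in all 502 under other alternatives. The call was lost in 19 and 16 of these values. The 16 losses were all within the first sequencing project alone. Under dbcAMP they concerned *Taok3*, *Fstl1*, *Ccn1*, *Stk3* and *Itga6*. On withdrawal they concerned *Wwc2*, *Vgll4*, *Dag1* and *Pmp22*. Against undifferentiated cells they concerned *Limd1*, *Frmd6*, *Fstl1*, *Myof*, *Ccn1*, *Itga6* and *Dag1*.

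Deviations from stage means correlated by 0.028 to 0.304 between same-numbered libraries, and in 15 of 18 comparisons a library correlated best with its own number, a hint of pairing. Same-numbered libraries also share a sequencing project, and their library codes are consecutive. The numbers were still not taken as pairs, because the labels name no shared culture or animal and not every same-numbered pair exceeded 0.1. With the replicate block 8, 6 and 7 members were called in the 3 comparisons, against 8, 5 and 7, and the one added was *Lats1* on withdrawal (log2 change -0.29, edgeR adjusted p = 0.0402).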
